A study of Mus musculus with 5 samples.

Results

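The genes described here are 8 interferon-gamma induced genes of immune defence: the GTPase genes Gbp2, Gbp3, Igtp, Irgm1 and Irgm2, the transcription factor genes Irf1 and Irf8, and Nlrc5, a regulator of antigen presentation genes. They were chosen by name, and each was read at the probe set that carries its symbol alone and has the highest mean over all arrays. That rule gave a value for 5 of the 8, Gbp3, Irgm1, Irf1, Irf8 and Nlrc5, among 19937 genes read in this way. Gbp2, Igtp and Irgm2 have no value here, because Gbp2 shares its probe set with Gbp2b, and Igtp and Irgm2 share 1 with each other.

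Total RNA was hybridised to Affymetrix gene arrays, 1 sample to each, and came from CD45+CD3+CD4+CD44low cells, T helper lineage cells with little surface CD44, sorted from mouse colon lamina propria, the tissue layer under the gut epithelium. Conditional mice (CD4cre/Cnb1flox, 3 arrays) carried a floxed Cnb1 gene and a Cre recombinase under CD4. Control mice (labelled control WT; CD4neg/Cnb1flox, 2 arrays) carried the same floxed gene without Cre, and all mice were bred under specific pathogen-free conditions. Cnb1, gene symbol Ppp3r1, encodes calcineurin B, the regulatory subunit of the calcium-dependent phosphatase that activates NFAT factors. A Cre driven by CD4 acts during thymic development and so reaches T cells beyond the CD4 lineage. The labels give no age and no treatment and name no deleted exon. The design text speaks of independent experiments with several mice in each group and does not tie a mouse or an experiment to an array, so pooling is possible. The p-values therefore describe only how these arrays vary, which may be technical variation.

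Interferon-gamma binds a receptor made of Ifngr1 and Ifngr2 and signals through the kinases Jak1 and Jak2, and the genes it switches on first often carry a DNA element called GAS. Irf1 is among the first genes switched on and binds a second element, the ISRE, in many later targets. The guanylate-binding proteins (Gbp genes) and the immunity-related GTPases (Irgm1, Irgm2, Igtp) are large GTPases that gather on vacuoles holding microbes, and the Irgm proteins regulate the other members of their family. Nlrc5 is the main activator of class I antigen presentation genes and is highly expressed in T cells, and Irf8 is best known from dendritic cells, macrophages and B cells.

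The promoters show which of these elements lie near each gene. The sequences below are 100-base stretches upstream of the gene start, from RefSeq (GRCm38.p6), and cover the members for which a match was found. Capitals mark matches to GAS (letters TTCNNNGAA, which reads the same on both strands) or to ISRE (letters GAAANNGAAA on either strand).
Gbp3: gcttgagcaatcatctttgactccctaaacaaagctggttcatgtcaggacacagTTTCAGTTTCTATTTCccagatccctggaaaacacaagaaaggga
Irgm1: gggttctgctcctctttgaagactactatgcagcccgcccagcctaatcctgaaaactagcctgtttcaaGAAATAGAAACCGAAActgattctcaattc
Irf1: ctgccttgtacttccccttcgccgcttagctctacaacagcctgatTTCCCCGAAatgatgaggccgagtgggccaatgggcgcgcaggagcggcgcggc
Irf8: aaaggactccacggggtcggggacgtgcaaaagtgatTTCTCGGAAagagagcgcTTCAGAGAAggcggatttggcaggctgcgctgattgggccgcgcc
Gbp2: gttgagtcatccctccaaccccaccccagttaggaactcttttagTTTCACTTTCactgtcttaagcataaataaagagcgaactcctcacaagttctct
Igtp: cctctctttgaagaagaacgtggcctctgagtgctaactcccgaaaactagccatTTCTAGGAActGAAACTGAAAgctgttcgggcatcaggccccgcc
Irgm2: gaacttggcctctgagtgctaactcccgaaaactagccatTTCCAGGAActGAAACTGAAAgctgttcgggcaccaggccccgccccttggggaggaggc

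These stretches lie at chr3:142559944-142560043 (+) for Gbp3, chr11:48871421-48871520 (-) for Irgm1, chr11:53769878-53769977 (+) for Irf1 and chr8:120736150-120736249 (+) for Irf8. Those of Gbp2, Igtp and Irgm2 lie at chr3:142620559-142620658 (+), chr11:58199456-58199555 (+) and chr11:58214862-58214961 (+). In Gbp3 and in Irgm1, 2 ISRE matches overlap each other, the nearest ending 30 and 15 bases before the gene start. Irf1 and Irf8 held GAS matches and no ISRE match, 1 in Irf1 and 2 in Irf8. Igtp and Irgm2 held 1 GAS and 1 ISRE match each, and the aligned part of their stretches differed at 3 of 85 bases, 1 of them inside the GAS match. Of the 8 genes, 7 had a promoter window of 300 bases in the RefSeq table, and all 7 held a match in at least 1 window, while the second windows of Gbp3, Irf1 and Irf8, for other gene starts, held none. Among all 32851 windows of the same length, GAS was matched in 8.30%, ISRE in 3.44%, both in 0.454% and either in 11.3%. These shares count windows, whereas the 7 counts genes, some with more than 1 window. A match describes the letters only.

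Before the members, the arrays themselves need a description. Control replicate 1 stood apart from the other 4 arrays. Its values correlated with the conditional arrays at 0.920 to 0.949 over all probe sets, control replicate 2 correlated with them at 0.964 to 0.972, and the conditional arrays correlated with each other at 0.986 to 0.989. All 12 measured T cell markers were lowest on control replicate 1, Cd4 and Cd3e among them, and 11 of 12 epithelial markers were highest there. The summed unlogged signal of the T cell markers was 26096 to 30385 on the conditional arrays, against 5126 on control replicate 1 and 33377 on control replicate 2. That of the epithelial markers was 2461 to 4447 on the conditional arrays, against 20629 and 4306 on control replicates 1 and 2. Markers of natural killer and innate lymphoid cells, 9 measured, summed to 3243 to 3802 on the conditional arrays, against 1010 and 1884 on control replicates 1 and 2, and 1 of them rose, Tyrobp, a signalling adaptor of these and myeloid cells (1.88 ± 0.129, SE, limma, adjusted p = 0.0269). Bulk RNA cannot tell fewer cells of a type from less RNA per cell, and the part of these markers in the differences below was not tested. The main results are therefore also given with each control array taken singly. The control arm is then 1 array, the spread comes from the 3 conditional arrays alone, and the lone control array is assumed to vary like them.

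The floxed gene itself, Ppp3r1, read 8.64, 8.83 and 8.77 on the conditional arrays, against 8.99 and 8.60 on the control arrays, in log2 signal. The difference was -0.05 ± 0.159 (SE, limma, adjusted p = 0.927), and since the probe set may lie outside the deleted part, this checks nothing about the deletion.

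Gbp3 was the member that rose in conditional cells, and Irgm1 was higher on every conditional array without passing the test. Nlrc5 differed mainly because control replicate 1 was low, and Irf1 and Irf8 had overlapping groups. Past an adjusted p of 0.05, 1 of the 5 members was higher and 0 lower, where 0.416% of all genes were called, 0.371% higher and 0.0451% lower. The groups were fully apart in the higher direction for 3 of the 5, Gbp3, Irgm1 and Nlrc5, as for 17.4% of all genes. The median log2 difference of the 5 was 0.53, beside 0.03 over all genes. Set against control replicate 1 only it was 0.60, and against control replicate 2 only it was 0.21, beside 0.09 and -0.02 over all genes.

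**Figure D1:**
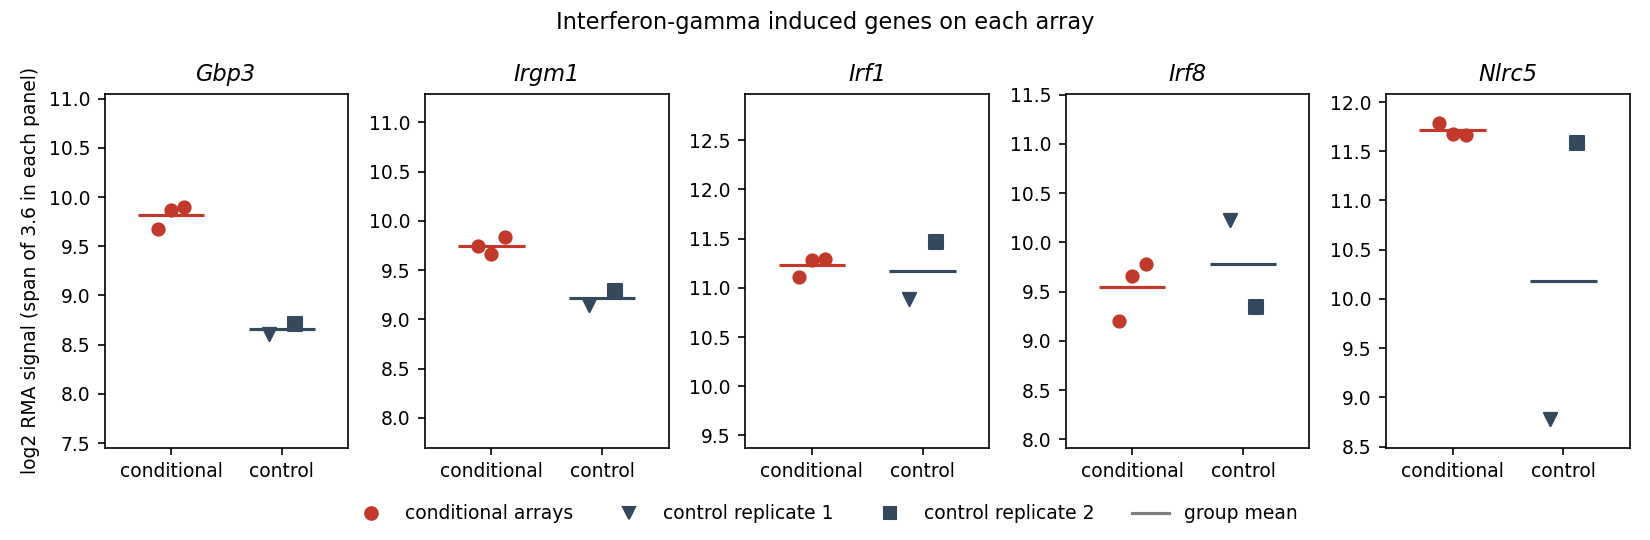
Log2 RMA signal of the 5 measured members on each array, conditional left and control right, with circles for the 3 conditional arrays, a triangle for control replicate 1, a square for control replicate 2 and lines for group means. Each panel spans 3.6 log2 units; the conditional arrays lie above both controls for Gbp3, Irgm1 and Nlrc5, and control replicate 1 lies far below all other arrays for Nlrc5.

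Gbp3 encodes a guanylate-binding protein of the cluster that acts on intracellular bacteria and protozoa. Its log2 signal was 9.87, 9.90 and 9.68 on conditional replicates 1, 2 and 3, against 8.60 and 8.71 on control replicates 1 and 2. The groups did not overlap, and the control arrays differed from each other by far less than from the conditional arrays. Of the 9 measured natural killer and innate lymphoid markers, 5 (Tyrobp, Klrd1, Klrk1, Kit and Il23r) were also lower on both control arrays than on every conditional array. The other 4 (Ncr1, Klrb1c, Klra8 and Eomes) differed by 0.03 to 0.08 and were higher on control replicate 2 than the conditional mean. Macrophage markers had a median difference of 0.68, with 7 of 13 fully apart in the higher direction. Dendritic cell markers had a median of 0.42, with 6 of 11 fully apart in the higher direction and 1 in the lower. Over all genes 17.4% were fully apart in the higher direction and 13.1% in the lower. The part of any of these marker lists in the Gbp3 result was not tested. The mean was 9.81 ± 0.121 (SD, n = 3) in conditional cells and 8.65 ± 0.0717 (SD, n = 2) in control cells, a difference of 1.16 ± 0.122 (SE) with a 95% confidence interval from 0.85 to 1.47, or 2.23-fold (limma, adjusted p = 0.0496). The call sits at the threshold: it was lost in 13 of 16 other settings, at an adjusted p between 0.0501 and 0.0572 for another normalization, filter, probe set choice, trend or robust variance and between 0.174 and 0.359 with array weights, the replicate block or any 1 conditional array left out. The difference itself stayed between 1.09 and 1.23 in all 16, at 1.21 from control replicate 1 and 1.11 from control replicate 2.

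Irgm1 encodes a membrane-bound regulator of the immunity-related GTPases and is needed in mice for survival of T cells exposed to interferon-gamma. It read 9.66, 9.84 and 9.74 on conditional replicates 1, 2 and 3, against 9.15 and 9.29 on control replicates 1 and 2. All conditional values lay above both controls, and as for Gbp3 the control arrays lay close together. The difference was 0.53 ± 0.116 (SE), a 1.44-fold higher level with a 95% confidence interval from 0.23 to 0.83 on the log2 scale (limma, adjusted p = 0.147). Leaving out control replicate 2 gave 0.60, and leaving out control replicate 1 gave 0.46 (limma, adjusted p = 0.0218 and 0.116, where 11% and 3.34% of all genes were called higher and 16.5% and 2.77% lower). With 1 control array in each of these fits, the p-values rest on the spread of the conditional arrays.

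Nlrc5 encodes the class I transactivator of the NOD-like receptor family. Its log2 signal was 11.67, 11.67 and 11.79 on the conditional arrays, against 8.78 on control replicate 1 and 11.58 on control replicate 2. Control replicate 1 was the only low array, and control replicate 2 lay just under the conditional range. The mean difference of 1.53 ± 0.807 (SE) had a 95% confidence interval from -0.53 to 3.59 (limma, adjusted p = 0.466). Without control replicate 2 the difference was 2.93 (limma, adjusted p = 0.00100), and without control replicate 1 it was 0.13 (adjusted p = 0.739), each p again resting on the spread of the conditional arrays alone. The T cell markers had a median difference of 2.33 from control replicate 1 and -0.37 from control replicate 2, and their part in the Nlrc5 result was not tested.

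The annotation gave Nlrc5 19 probe sets, which allowed the same pattern to be read repeatedly along 1 gene. Control replicate 1 was the lowest array on all 19, by between 1.22 and 3.50 below the conditional mean. Control replicate 2 was also below the conditional mean on all 19, by 0.08 to 0.57 with a median of 0.23. The groups were fully apart in the higher direction on 17, beside 17.4% of all genes read at 1 probe set each. None of the 19 passed when all 34760 probe sets were tested (limma, smallest adjusted p = 0.354, and 0 of 19 at an unadjusted p of 0.05, the smallest being 0.0511). The probe sets share the RNA of the same 5 arrays and are not replicates of the comparison.

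**Figure D2:**
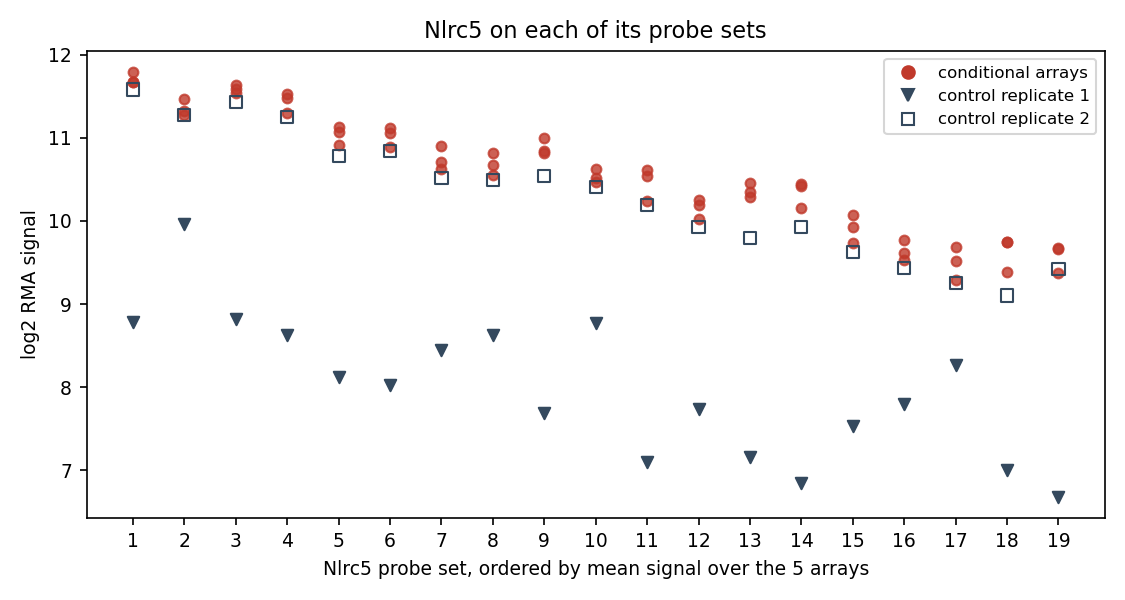
Log2 RMA signal of Nlrc5 on each of its 19 probe sets, ordered along the horizontal axis by mean signal over the 5 arrays, with circles for the 3 conditional arrays, triangles for control replicate 1 and open squares for control replicate 2. Control replicate 1 is the lowest array on all 19 probe sets, and control replicate 2 lies at or just under the conditional arrays.

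Irf1 encodes an early transcription factor of the interferon-gamma response. It read 11.28, 11.29 and 11.11 on conditional replicates 1, 2 and 3, against 10.89 and 11.46 on control replicates 1 and 2. The conditional arrays lay between the controls. The difference was 0.05 ± 0.199 (SE) with a 95% confidence interval from -0.45 to 0.56 (limma, adjusted p = 0.940), at 0.34 from control replicate 1 and -0.23 from control replicate 2. Its other probe set, a dimmer one, differed by -0.22 (limma, adjusted p = 0.550). There the groups were fully apart in the lower direction, as for 13.1% of all genes. At the probe set used, the direction of Irf1 turned to -0.00339 after another quantile normalization and to -0.00942 after median centring.

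Irf8 encodes a transcription factor of the myeloid and B cell lineages that T cells also use. It read 9.66, 9.78 and 9.20 on conditional replicates 1, 2 and 3, against 10.22 and 9.34 on control replicates 1 and 2. Control replicate 1 was the highest array and conditional replicate 3 the lowest. Control replicate 2 lay within the conditional range, so the groups overlapped. The difference was -0.24 ± 0.322 (SE) with a 95% confidence interval from -1.06 to 0.59 (limma, adjusted p = 0.818). It was -0.68 from control replicate 1 and turned to 0.21 from control replicate 2.

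Markers of cells in which Irf8 is known to be high also differed between arrays. The summed unlogged signal of 9 measured B cell markers was 2539 to 3631 on conditional arrays, against 4369.9 and 5626 on control replicates 1 and 2. The 11 dendritic cell markers summed to 6038 to 7127 on conditional arrays, against 6189 and 6483 on the control arrays. Such a sum weighs bright genes most, here Ccr7, at 12.06 to 12.24 in log2 signal on conditional arrays, against 11.15 and 12.19. Gene by gene, 6 of the 11 were fully apart in the higher direction and 1 in the lower, with a median difference of 0.42. Over all genes 17.4% and 13.1% were so. Macrophage and monocyte markers, 13 measured, summed to 2706 to 6015 on conditional arrays, against 2285 and 1759 on the control arrays. RMA signals have no zero, so no marker can be said to be absent. Their part in the Irf8 signal was not tested.

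**Figure D3:**
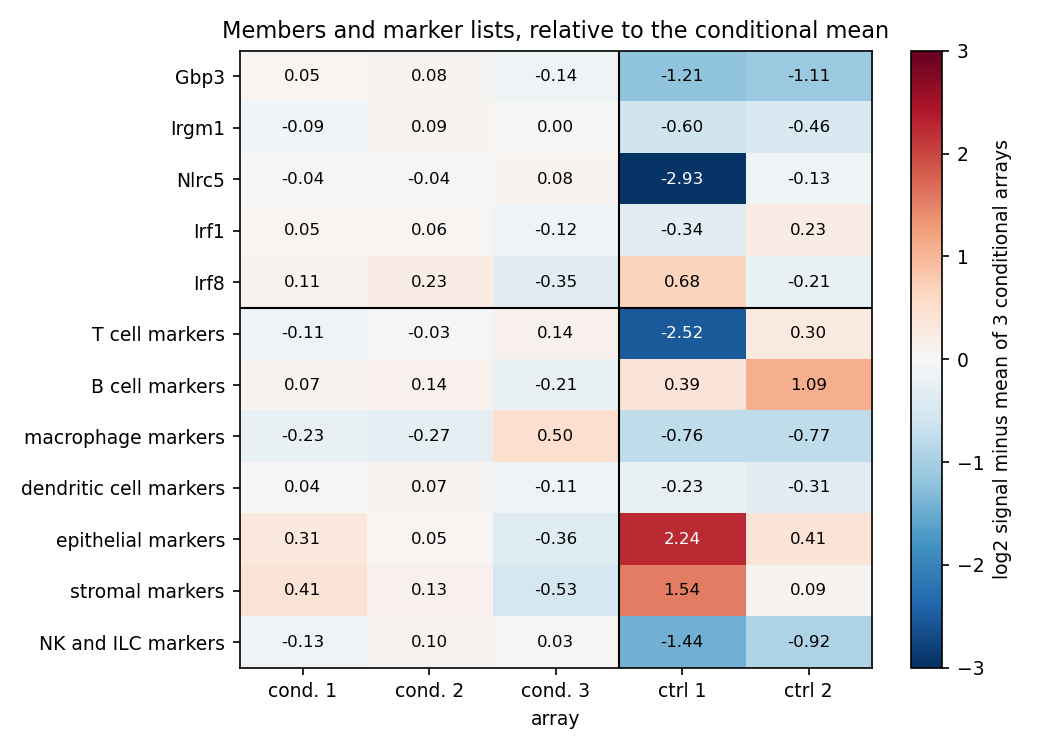
Log2 signal of each measured member and mean log2 signal of each marker list on the 5 arrays, each minus its own mean over the 3 conditional arrays, with red for higher and blue for lower. Nlrc5 and the T cell markers are both low on control replicate 1 (-2.93 and -2.52) and near the conditional mean on control replicate 2 (-0.13 and 0.30), whereas Gbp3 is low on both controls (-1.21 and -1.11), and the natural killer (NK) and innate lymphoid (ILC) markers are lower there on average (-1.44 and -0.92).

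Among the other GTPases of both families, some genes were lower on both control arrays and others on control replicate 1 only. Of the other guanylate-binding proteins, 7 of 9 were measured, 0 passed the test (limma), and 2 had groups fully apart in the higher direction, beside 17.4% of all genes. Gbp5, which promotes inflammasome assembly, read 8.62, 8.85 and 8.61 on conditional arrays, against 7.87 and 7.71 on control arrays, a difference of 0.90 ± 0.132 (SE, adjusted p = 0.0788). Gbp7 differed by 0.70 ± 0.196 (SE, adjusted p = 0.217), at 0.9999 and 0.40 against control replicates 1 and 2. The remaining 5 (Gbp2b, Gbp4, Gbp8, Gbp9 and Gbp11) were higher than control replicate 1 and lower than control replicate 2, Gbp4 by 2.31 and -0.30. The median of the 7 was 0.46, at 0.9999 against control replicate 1 and -0.53 against control replicate 2. Gbp genes are close paralogs, so probe sets may share signal between them.

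Of 12 other immunity-related GTPases, 6 were measured, 0 passed the test and 4 had groups fully apart in the higher direction, beside 17.4% of all genes, with a median of 0.72. Gm4951, a predicted gene of this family, read 7.62, 7.68 and 7.42 on conditional arrays, against 6.52 and 6.18 on control arrays (1.22 ± 0.157, SE, limma, adjusted p = 0.0664). Iigp1, an effector that coats the vacuoles of protozoan parasites, differed by 0.69 and Gm12185 by 1.03 (adjusted p = 0.211 and 0.178). These 3 kept their direction against both controls, and Gm12250 was at 1.38 and 0.12. The distant relatives Irgc1 and Irgq were at 0.01 and -0.02.

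**Figure D4:**
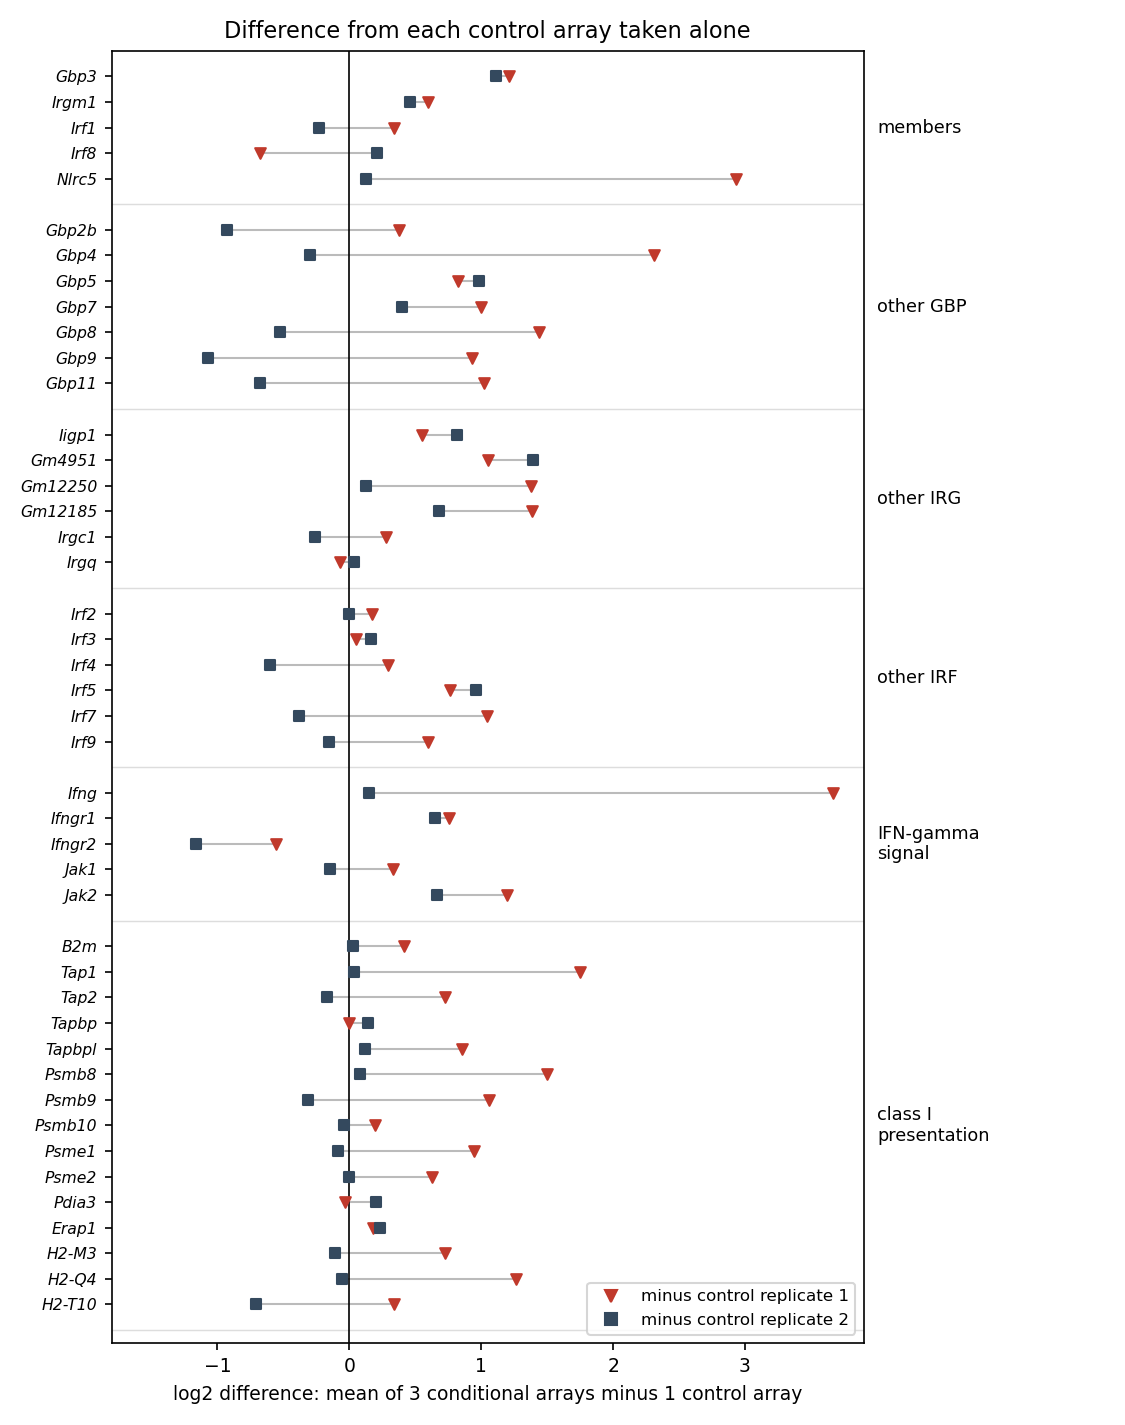
Log2 difference of the mean of 3 conditional arrays from control replicate 1 (triangles) and from control replicate 2 (squares), each taken alone, for the measured members, the other GTPases (GBP and IRG), the other interferon regulatory factors (IRF), the interferon-gamma signal genes and the class I presentation genes. Gbp3, Irgm1, Gbp5, Gm4951, Iigp1 and Irf5 have both symbols close together right of 0, whereas Nlrc5, Gbp4, Ifng and Tap1 have 1 symbol near 0 and 1 far to the right.

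Upstream of these genes, the interferon-gamma signal was read at 5 of 6 genes, and 0 passed the test. Ifng, the cytokine, differed by 3.67 from control replicate 1 and by 0.15 from control replicate 2. The receptor chains went opposite ways: Ifngr1, the binding chain, read 12.54 to 12.65 on conditional arrays, against 11.85 and 11.95 on control arrays (0.71 ± 0.106, SE, limma, adjusted p = 0.0809). Ifngr2, the chain that brings in Jak2, read 9.88 to 9.99 on conditional arrays, against 10.51 and 11.11 on control arrays (-0.86 ± 0.201, SE, adjusted p = 0.166). Jak2 differed by 0.93 (adjusted p = 0.126). Among 7 restraints of the signal 0 passed, with a median of 0.10. Cish, Socs3 and Pias1 had the smallest p, at 0.91, -0.26 and 0.26.

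Of 7 other interferon regulatory factors 6 were measured and 0 passed. Irf5, a factor of inflammatory cytokine induction best known from myeloid cells, read 9.21, 9.37 and 9.01 on conditional arrays, against 8.44 and 8.24 on control arrays (0.86 ± 0.152, SE, limma, adjusted p = 0.109). Irf9 and Irf3 differed by 0.22 and 0.11. The list median was 0.16, at 0.44 against control replicate 1 and -0.08 against control replicate 2.

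Downstream of Nlrc5, 15 of 21 class I presentation genes were measured, and 0 passed. Their median difference was 0.31, at 0.73 against control replicate 1 and -0.00164 against control replicate 2, and 12 of the 15 were lowest on control replicate 1. Tap1, a peptide transporter subunit, differed by 1.75 and 0.03 from control replicates 1 and 2, and Psmb8, an immunoproteasome subunit, by 1.499 and 0.08. Tapbpl, a peptide editor, was at 0.85 and 0.12. Class II presentation genes, which Ciita activates, had a median of 0.16 over 8 of 9 genes, with 0 past the test. H2-Ab1, H2-Ob and H2-Eb1 had the smallest p, at 0.40, -0.70 and 0.28.

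Among 17 of 18 other interferon-gamma induced genes, 1 passed and 10 had groups fully apart in the higher direction, beside 17.4% of all genes. Cxcl9, a chemokine for T cells bearing Cxcr3, read 8.73, 8.82 and 8.62 on conditional arrays, against 7.15 and 7.14 on control arrays, and rose by 1.58 ± 0.113 (SE, limma, adjusted p = 0.0279). Il18bp, a decoy for interleukin-18, differed by 0.68 and Nos2, the inducible nitric oxide synthase, by 1.07 (adjusted p = 0.0938 and 0.111). Cxcl9 and Nos2 are best known from macrophages. Of 13 measured macrophage markers 12 differed upward and 0 passed, with a median of 0.68. Cd14, Itgam and Lyz2 had the smallest p, at 2.41, 0.80 and 2.08 (limma, adjusted p = 0.171, 0.191 and 0.209), and Mertk was at -1.27. Lyz2 read 8.92, 9.06 and 10.59 on conditional arrays, against 7.76 and 7.12. The cells had been sorted for CD3 and CD4, and the part of any macrophages in the Cxcl9 and Nos2 differences was not tested. Type I interferon-stimulated genes, read at 18 of 20, had a median of 0.05 with 0 past the test, 4 with groups fully apart in the higher and 5 in the lower direction, beside 17.4% and 13.1% of all genes. Ifit1, Ifit3 and Usp18 had the smallest p, at 0.65, -0.69 and -0.73.

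The genes most like the members over the 5 arrays were found by the distance between each gene's log2 values, centred on its own mean, and the mean centred values of the 5 members. The nearest of 19932 genes were Map3k1, a kinase of the MAP kinase pathway (distance 0.0910), Rasgef1a (0.108), Thap6 (0.114), Zcchc18 (0.122) and Helz2, a helicase (0.126). The centred members averaged 0.26, 0.33 and 0.14 on conditional arrays, against -0.64 and -0.09 on control arrays, and Map3k1 stood at 0.20, 0.33 and 0.16, against -0.65 and -0.04. The mean joins unlike members: on control replicate 1, Nlrc5 stood at -2.93 and Irf8 at 0.68 from the conditional mean. With 5 arrays this likeness is a description of the arrays.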

How the data were processed

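Expression data of 5 arrays were taken as the authors deposited them: log2 signals. Per the submitters' processing notes, the tools were RMA and oligo, whose versions are not stated there. Quantile normalization in RMA removes global shifts between arrays, and its background step compresses differences of dim genes. Of 34760 probe sets, 21640 had 1 gene symbol, 1321 several and 11799 none in the platform annotation. Each of 19937 genes was read at its probe set with the highest mean.

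Groups were compared with limma 3.58.1 in R 4.3.3 (lmFit and eBayes, no covariate, 3 residual degrees of freedom and 2.10 from the prior), with Benjamini-Hochberg adjustment over all genes and a threshold of 0.05. The procedure was tested on simulated data in which all arrays varied alike, so that test does not cover an array that stands apart. Members, gene lists and alternatives were chosen with earlier results of these data known. Named genes are the members, Ppp3r1, the 5 nearest by likeness, and for each list those past the threshold and up to 3 with the smallest p. From the cell type marker lists, those past the threshold are named, but only some of those with the smallest p. Others in the text were singled out after their values were seen. Array medians lay between 7.12 and 7.23, no 2 arrays were identical, and precision is limited by how few arrays there are. Alternatives covered normalization, filters, probe set choice, variance model, replicate block, threshold and each array left out.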

Additional observations from a re-analysis of the deposited data

How the results depend on the processing

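The call of Gbp3 depends on small changes of processing. With limma, 0 of the 5 members passed after another quantile normalization, median centring, either filter on dim genes, the mean or the most variable probe set, a variance trend, a robust prior, array weights, the replicate block, and at an adjusted p of 0.01. In these settings 2 members were at an unadjusted p under 0.05 in limma (3 with array weights). Of all genes tested (19937, or 14952 and 9968 with the filters), 1634 to 3053 were. Leaving out any 1 conditional array also gave 0 members. Without control replicate 2, Gbp3, Irgm1 and Nlrc5 differed by 1.21, 0.60 and 2.93, and without control replicate 1 by 1.11, 0.46 and 0.13. In both of these fits the lone control array is assumed to vary like the conditional ones. The median difference of the members ranged from 0.21 to 0.60 with 1 array left out, lowest without control replicate 1. Over all genes the count of 83 moved to 275 with all probe sets tested, to 13 with array weights, to 374 at an adjusted p of 0.1 and to 0 at 0.01 (2892 at an unadjusted p of 0.05), and to between 0 and 5474 with 1 array left out, the zeros without any 1 conditional array (limma, 1417 to 2037 at an unadjusted p of 0.05).

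Irf1 turned to -0.00339, -0.00942, -0.0821, -0.0019 and -0.23 after another quantile normalization, median centring, the mean of its probe sets, array weights and without control replicate 1. Irf1 was at most 0.34 and Irf8 at least -0.68 with 1 array left out, both without control replicate 2. Irf8 turned to 0.21 without control replicate 1. Ppp3r1 ranged from -0.25 to 0.15 with 1 array left out, and turned to 0.003 without conditional replicate 1 and to 0.15 without control replicate 1. For these turns the cause was not tested. Gbp3, Irgm1 and Nlrc5 kept their direction in all 16 settings. Replicate numbers 1 and 2 occur in both groups. Deviations from the group means correlated at 0.339 for number 1 and -0.0892 for number 2. With 2 control arrays their deviations mirror each other, so these values cannot tell whether the numbers pair the arrays. With the replicate block Gbp3 was at 1.23 (limma, adjusted p = 0.177), 69 genes passed and 0 members did. Control arrays that differ this much limit every estimate of the control level.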

Other observations

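The NOD-like receptor family, to which Nlrc5 belongs, held 1 gene past the test among 13 measured of 15 listed. Nlrp3, the sensor of the inflammasome that matures interleukin-1, read 8.42, 8.23 and 8.08 on conditional arrays, against 5.67 and 5.45 on control arrays, and rose by 2.68 ± 0.150 (SE, limma, adjusted p = 0.0171). Naip2 differed by 0.76 and Nod1 by -0.87 (adjusted p = 0.179 and 0.217), both with groups fully apart, as for 17.4% of all genes in the higher and 13.1% in the lower direction. Nlrc3, a restraint on T cell activation, singled out after its values were seen, read 8.81, 9.15 and 9.22 on conditional arrays, against 6.72 on control replicate 1 and 9.68 on control replicate 2. On Nlrc3, as on Nlrc5, control replicate 1 was the lowest array. The list median was 0.17, at 0.32 against control replicate 1 and 0.01 against control replicate 2.

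Among the marker lists, 2 of 12 epithelial genes fell, with log2 differences of -1.67 for Krt20 and -1.41 for Cdhr5 (limma, adjusted p = 0.0327 and 0.0366), and for both the conditional arrays lay below both control arrays. Stromal and endothelial markers, 11 measured with 0 past the test, summed to 7223 to 13431 on conditional arrays, against 29356 and 13412 on control replicates 1 and 2. Of 9 natural killer and innate lymphoid markers, Ncr1, Klrb1c, Klra8 and Eomes differed by 0.03, 0.05, 0.06 and 0.08 (limma, adjusted p between 0.890 and 0.979), and all 4 were higher on control replicate 2 than the conditional mean. Klrd1, a receptor subunit of natural killer cells, read 8.04, 9.13 and 8.78 on conditional arrays, against 5.23 and 5.59 on control arrays (3.24 ± 0.348, SE, limma, adjusted p = 0.0501). Kit, a receptor of innate lymphoid and mast cells, differed by 2.17 (adjusted p = 0.0615).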
